A study of Danio rerio with 80 samples.

Results

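The PAR bZIP and nfil3 factors are the transcription factors through which the circadian clock passes its time signal to many of its output genes. The 9 zebrafish genes described here are dbpa, dbpb, tefa, tefb, hlfa and hlfb of the PAR bZIP group and nfil3, nfil3-5 and nfil3-6 of the nfil3 group. They were picked by gene symbol, and 9 of 9 symbols were found among the 23473 listed entries. Of these, 8 reached a mean of 10 RPM (reads per 1000000 reads, as deposited) over all libraries, as did 10646 entries in all. The ninth, hlfb, averaged 1.83 RPM and was described but not tested.

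PAR bZIP proteins, named for a domain rich in proline and acidic amino acids next to a basic leucine zipper, bind a DNA element called the D-box and activate transcription from it. In mice, Dbp is a direct target of the clock activators CLOCK and BMAL1 and its messenger cycles strongly over the day, Tef and Hlf are its close relatives, and mice without these factors are prone to seizures. Nfil3, also known as E4BP4, binds the same element as a repressor, and in mouse liver it cycles against Dbp. In zebrafish, where most genes of the group are present in duplicate and tissues sense light directly, D-box elements also serve the response of genes such as per2 to light.

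The libraries were made from poly-A RNA of 80 single whole brains of adult wild-type AB zebrafish. The fish had been kept from 6 to 96 hours after fertilisation in 0.1% DMSO, the solvent (control), in a mixture of persistent organic pollutants at 10 times (POP10) or 70 times (POP70) average human blood levels, or in perfluorooctane sulfonic acid alone at 0.3 mg/L (PFOS10) or 2.06 mg/L (PFOS70), the amounts that the mixtures held. They then grew up in clean water, and the question was whether brains of adults differ by what the embryos had met. The exposures were run as 4 numbered replicates per condition, 3 to 6, from each of which 2 females and 2 males were taken. Fish of number 3 were 240 days old when sampled, those of number 4 were 233, those of number 5 were 226 and those of number 6 were 219 days old in every condition, so number and age cannot be told apart. The time of day of sampling is not given in the sources used here. The deposited values stood for 9.01 to 20.3 Mreads per library (1 Mread is 1000000 reads), with a median of 12.1 Mreads. Levels below are log2 RPM on the deposited scale, which holds no correction for gene length, so they are compared between samples and not between genes. In a whole brain, fewer cells that express a gene and less RNA per cell cannot be told apart.

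The 4 fish of PFOS70 number 5 stood apart from the other fish of their number before any test. For the clock gene nr1d1, a nuclear receptor that represses transcription and is no member of the group, they lay between 7.35 and 7.92, while the other 16 fish of number 5 lay between 2.63 and 4.42. Numbers 3 and 6 ranged from 6.44 to 7.96, which covers the 4 fish. For dbpb, tefa, nfil3, nfil3-5 and dbpa these 4 fish did not overlap the other 16 either, while for tefb, hlfa, hlfb and nfil3-6 they did. The share of all genes without overlap between these fish was not worked out. Results that rest on them are therefore given with and without them, a choice made with their values known.

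dbpb was low in number 5 and high in numbers 3 and 6. The gene lies at chr16:13599693-13613475 on the minus strand (GRCz11) and encodes a relative of mouse Dbp. In number 3 the means of 4 fish were 7.63 for control, 7.54 for POP10, 7.26 for POP70, 7.30 for PFOS10 and 7.17 for PFOS70. In number 4 they were 6.88, 6.72, 6.61, 6.55 and 6.42 in the same order, and in number 5 they were 6.02, 5.98, 5.96, 6.20 and 7.74. In number 6 they returned to 7.59, 7.49, 7.26, 7.24 and 7.03. Numbers 3 and 4 did not overlap, number 4 lay below number 6 without overlap, and number 5 lay below every other exposure replicate except for PFOS70. In linear units the exposure replicates of number 5 other than PFOS70 ran from 62.1 to 73.5 RPM and those of number 3 from 144 to 198 RPM. The 4 fish of an exposure replicate were close together, with a median SD of 0.13.

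tefa, at chr12:19144833-19153177 on the minus strand, showed the same dip in number 5. It encodes thyrotroph embryonic factor, a D-box activator that in zebrafish takes part in the light response of per2. Its exposure replicates lay between 8.30 and 8.70 in number 3, between 8.15 and 8.67 in number 4 and between 8.62 and 8.85 in number 6. In number 5 the values were 7.77 for control, 7.67 for POP10, 7.41 for POP70, 7.49 for PFOS10 and 8.58 for PFOS70. Numbers 5 and 6 did not overlap even with PFOS70 included.

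**Figure D1:**
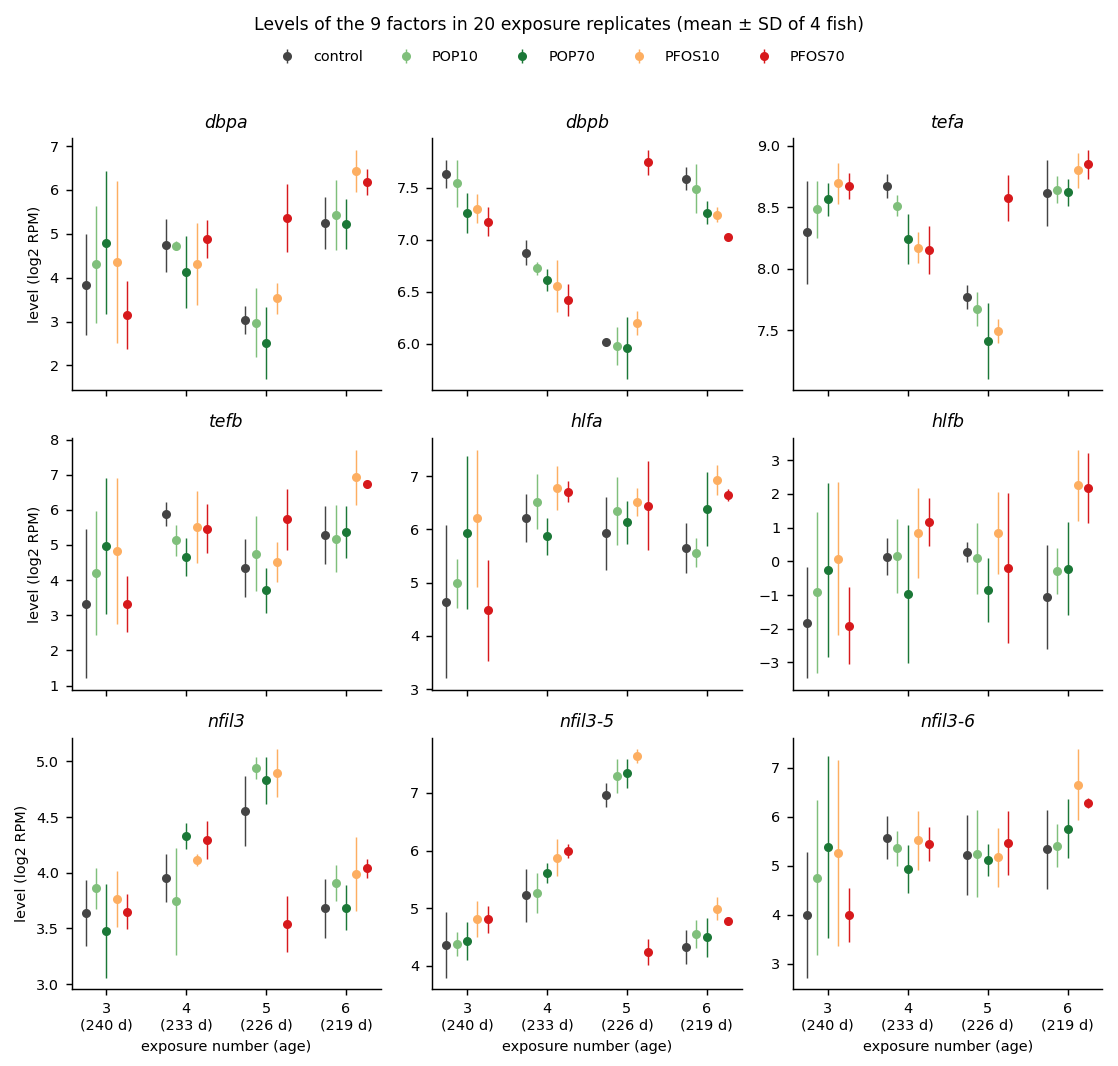
Level of each of the 9 genes (log2 RPM) against exposure number, with the age in days. Points are exposure replicates coloured by condition, and bars are the SD of 4 fish. dbpb and tefa are lowest in number 5 and nfil3 and nfil3-5 highest, with PFOS70 of number 5 on the other side, while tefb, hlfa, hlfb and nfil3-6 show wide bars in number 3.

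The repressor genes nfil3-5 and nfil3 ran the other way. nfil3-5, at chr6:8172227-8180042 on the plus strand, belongs to the nfil3 family. Its exposure replicates in number 3 were at 4.37 for control, 4.38 for POP10, 4.43 for POP70, 4.81 for PFOS10 and 4.81 for PFOS70. In number 4 they were at 5.22, 5.26, 5.61, 5.88 and 5.99 in the same order, in number 5 at 6.97, 7.30, 7.34, 7.64 and 4.24, and in number 6 at 4.34, 4.55, 4.49, 4.99 and 4.78. Number 5 without PFOS70 thus ran from 125 to 199.6 RPM, numbers 3 and 6 from 20.2 to 31.8 RPM, and number 4 lay in between. Counted by fish, the 4 of PFOS70 number 5 lay between 3.95 and 4.50 and the other 16 of that number between 6.85 and 7.81. nfil3, at chr10:5414224-5419256 on the plus strand and the namesake of the mammalian repressor, ran from 4.56 to 4.94 in the 4 exposure replicates of number 5 other than PFOS70, which was at 3.54. It ran from 3.48 to 3.86 in number 3, from 3.75 to 4.33 in number 4 and from 3.68 to 4.04 in number 6.

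**Figure D2:**
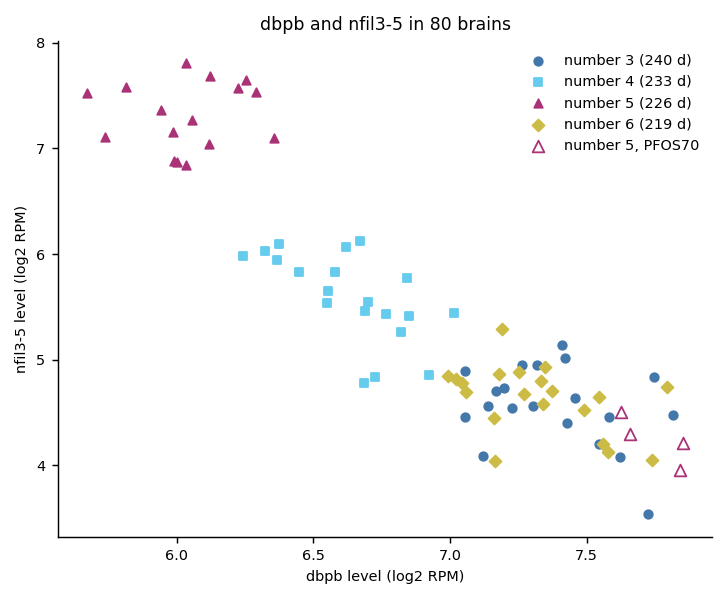
Level of nfil3-5 against that of dbpb (both log2 RPM), 1 point per fish, coloured by exposure number. Fish of number 5 sit at high nfil3-5 and low dbpb, the 4 PFOS70 fish of number 5 (open triangles) sit among those of numbers 3 and 6, and number 4 lies in between.

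Over the exposure numbers, 8 of 8 tested members passed an F test (limma on 20 exposure replicate means with condition in the model), where 46.9% of all genes passed. Adjusted p-values ran from 0.00514 for tefa to 0.0184 for nfil3, with 0.00614 for nfil3-5 and 0.0138 for dbpb. Without PFOS70 of number 5 the share of all genes was 48.6%, and the adjusted p fell to 5.04e-08 for dbpb and 6.62e-11 for nfil3-5. Against number 5, number 3 was higher for dbpb by 1.0 ± 0.26 (log2 difference ± SE, adjusted p = 0.0231) and for tefa by 0.76 ± 0.16 (0.014). It was lower for nfil3-5 with a difference of -2.14 ± 0.44 (0.0126) and for nfil3 at -0.87 ± 0.21 (0.0177). With hlfa, 5 of 8 members passed in this pair, against 17.4% of all genes. Without PFOS70 of number 5 the differences grew to 1.4 ± 0.07 for dbpb, 0.95 ± 0.12 for tefa, -2.82 ± 0.07 for nfil3-5 and -1.16 ± 0.12 for nfil3, each with an adjusted p under that with all fish, and dbpa passed as well. PFOS70 of number 5 was left out with its values for these genes known, so the smaller p-values add no support.

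Between numbers 5 and 6, dbpb, tefa and nfil3-5 passed again, each with number 5 on the same side as against number 3. dbpb was lower in number 5, with a difference of -0.94 ± 0.26 (adjusted p = 0.0481), tefa at -0.92 ± 0.16 (0.0147) and dbpa at -2.22 ± 0.42 (0.0228), and nfil3-5 was higher by 2.07 ± 0.44 (0.0266). That is 4 of 8 members, against 6.2% of all genes. nfil3, at 0.69 ± 0.21 (0.0619), and hlfa, at 0.04 ± 0.26 (0.932), did not pass in this pair, and dbpa had not passed between numbers 3 and 5 (0.317). In exact permutation tests of 5 against 5 exposure replicates (two-sided, unadjusted), tefa reached p = 0.00794, the smallest this design allows, and dbpb and nfil3-5 reached 0.0476. Without PFOS70 of number 5 each of dbpb, tefa, dbpa, nfil3 and nfil3-5 was at that smallest p. For each of these genes the remaining exposure replicates of numbers 5 and 6 did not overlap. PFOS70 was left out with its values for these genes known, so this p adds no support. The share of all genes at it was not worked out.

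For dbpb and nfil3-5 number 4 lay between number 5 and numbers 3 and 6. Numbers 4 and 5 gave 0 of 8 members and 0% of all genes with all fish (limma; 1679 of all genes had an unadjusted p under 0.05). Without PFOS70 of number 5, 4 of 8 members passed, against 0.629% of all genes. That exposure replicate was left out with its values for these genes known, so this count and its p-values add no support. dbpb was then higher in number 4 by 0.66 ± 0.07 (adjusted p = 0.000262), tefa by 0.76 ± 0.12 (0.00759), and nfil3-5 was lower, at -1.78 ± 0.07 (1.07e-08) and nfil3 at -0.75 ± 0.12 (0.0104). Numbers 4 and 6 gave 0 of 8 members, against 16.1% of all genes, and without PFOS70 of number 5 they gave 4 of 8, against 17.5%. These were dbpb at -0.68 ± 0.07, tefa at -0.36 ± 0.11, nfil3-5 at 0.96 ± 0.07 and dbpa at -1.15 ± 0.31. PFOS70 of number 5 belongs to neither number and enters this fit through the estimate of the spread. In exact permutation tests of numbers 4 and 6 (unadjusted), dbpb, nfil3-5 and dbpa reached p = 0.00794, the smallest possible, without overlap. In the same tests tefa was at 0.0317, nfil3 and nfil3-6 at 0.119, tefb at 0.262 and hlfa at 0.587. The share of all genes at these p was not worked out. Numbers 3 and 6 differed by 0.06 for dbpb (95% interval -0.50 to 0.62), -0.16 for tefa (-0.51 to 0.18), -0.18 for nfil3 (-0.63 to 0.27) and -0.07 for nfil3-5 (-1.0 to 0.86), and these differences did not pass.

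tefb, hlfa, hlfb and nfil3-6 followed another pattern. tefb, at chr3:5052822-5067585 on the minus strand, is the second copy of tef. Its exposure replicates ranged from 3.32 to 4.97 in number 3, from 4.65 to 5.88 in number 4, from 3.71 to 5.73 in number 5 and from 5.18 to 6.93 in number 6. The lowest were control and PFOS70 of number 3, both at 3.32, and the highest were PFOS10 and PFOS70 of number 6, at 6.93 and 6.73. The 4 fish of an exposure replicate differed widely, with an SD of 0.81 at the median and 2.12 at most, and single fish ran from 0.48 to 7.78.

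nfil3-6, at chr3:14099693-14103551 on the minus strand, had the same ends. It was at 4.00 in control and PFOS70 of number 3 and at 6.65 in PFOS10 and 6.28 in PFOS70 of number 6, while numbers 4 and 5 lay between 4.93 and 5.57. hlfa, at chr3:11585298-11624694 on the minus strand and named for hepatic leukemia factor, was at 4.48 in PFOS70 and 4.64 in control of number 3 and at 6.92 in PFOS10 of number 6. hlfb, at chr12:32159272-32165227 on the plus strand, rested on a median of 11 reads per library, with 0 reads in 6 libraries, and at most 87. Its exposure replicates ran from -1.90 in PFOS70 of number 3 to 2.26 in PFOS10 of number 6.

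Of the 3 tested genes of this set, all passed between numbers 3 and 6, and only hlfa passed in each pair with number 3. Against number 6, number 3 was lower for tefb, with a difference of -1.77 ± 0.42 (adjusted p = 0.00534), for nfil3-6 at -1.21 ± 0.26 (0.00365), for hlfa at -0.98 ± 0.26 (0.0111) and for dbpa at -1.61 ± 0.42 (0.0104). That is 4 of 8 members, against 27.4% of all genes, of which 22.4% were lower. Against number 4, number 3 was lower for hlfa (-1.17 ± 0.26, 0.00528) and tefb (-1.19 ± 0.42, 0.0352) and higher for dbpb (0.74 ± 0.26, 0.0377), 3 of 8 members against 37.5% of all genes, so the share of members was that of all genes. nfil3-6 did not pass in that pair (-0.68 ± 0.26, 0.0541). Against number 5, hlfa was lower in number 3 (-1.02 ± 0.26, 0.0213), while tefb (-0.48 ± 0.42, 0.425) and nfil3-6 (-0.56 ± 0.26, 0.142) did not pass. The median of all genes between numbers 3 and 4 was itself at -0.13.

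dbpa, at chr19:10177115-10196370 on the minus strand, the other Dbp relative, shared features of both patterns. It was low in number 5 without PFOS70, at 2.52 to 3.53, as dbpb was, and PFOS70 of that number was at 5.36. It was also spread between fish of an exposure replicate, with a median SD of 0.78, and highest in PFOS10 and PFOS70 of number 6, at 6.43 and 6.18.

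The split between the patterns also showed among fish of the same exposure replicate. The leading component below is the principal component with the largest share of variance (39.4%) over all tested genes outside the 9 members and the clock list. Its sign was set to rise with snap25a and syt1a over the fish, which names no cell type. Within exposure replicates it accounted for 88.4% of the variance of dbpa, 82.1% of tefb, 71.9% of nfil3-6, 71.5% of hlfb and 52.5% of hlfa. The same share was 0.00879% for dbpb, 1.42% for nfil3, 9.23% for tefa and 9.37% for nfil3-5, beside a median of 8.6% over all tested genes. The component averaged -0.92 ± 1.20 in number 3, 0.34 ± 0.57 in number 4, -0.02 ± 0.55 in number 5 and 0.60 ± 0.85 in number 6 (SD, n = 20 fish). With the component as a covariate, 5 of 8 members passed over the numbers, dbpa, dbpb, tefa, nfil3 and nfil3-5, and tefb, hlfa and nfil3-6 did not. The share of all genes that passed with this covariate was not worked out. No member passed with it between numbers 3 and 6, nor between 3 and 4, 3 and 5 or 5 and 6. Between numbers 3 and 6 the differences of hlfa and nfil3-6 changed sign, to 0.17 and 0.018. The summed neuronal markers given below did not follow the component over the numbers. What sets the component, and its part in these differences, was not tested.

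**Figure D3:**
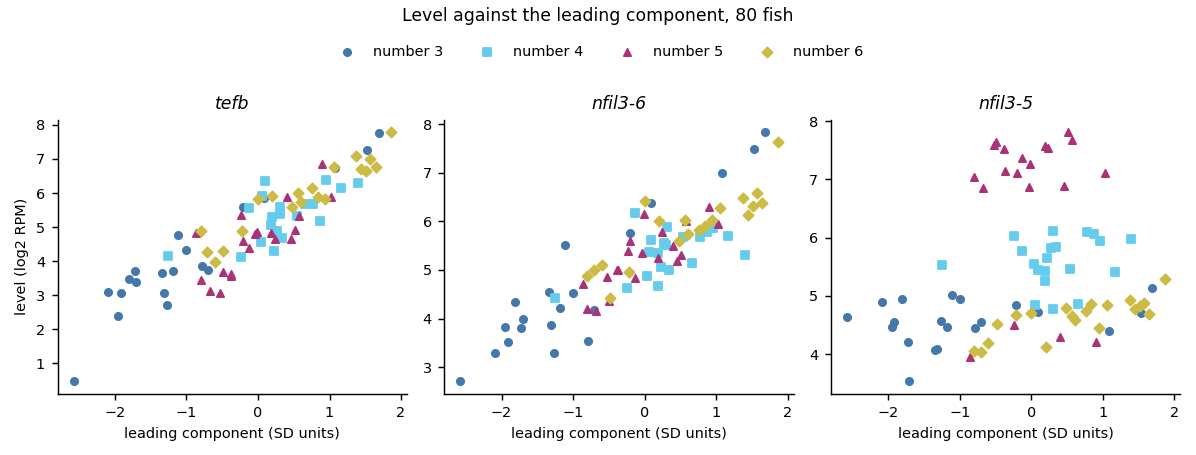
Level (log2 RPM) of tefb, nfil3-6 and nfil3-5 in 80 fish against the leading component (in SD units), coloured by exposure number. tefb and nfil3-6 rise along the component in every number, while nfil3-5 splits by number and the fish of a number lie in a flat band, apart from the 4 PFOS70 fish of number 5.

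The marker lists for the cell types of the brain overlapped between the numbers. The 6 neuronal genes summed to a median of 12767 RPM in number 3, 13545 in number 4, 13489 in number 5 and 12725 in number 6. The 5 radial glia and astroglia genes had medians between 4750 and 5529 RPM, the 5 oligodendrocyte genes between 7674 and 10052 RPM, and the 5 microglia genes between 127 and 163 RPM. Markers of blood and of tissue next to the brain varied more. The 14 pineal and retina genes found of 15 summed to 22 to 700.5 RPM over the 80 fish, with medians of 132, 148, 63.7 and 39.2 RPM in numbers 3 to 6, and of 34.4 RPM in control against 176 RPM in POP10, the highest of the conditions. The 5 erythrocyte genes summed to 418 to 5554 RPM, with a median of 2779 RPM in number 4 and medians of 1506 to 1746 RPM in the other numbers. The 8 pituitary genes summed to 4.22 to 34.6 RPM, with medians of 11.6 to 13.6 RPM over the numbers. opn1mw1 and the pituitary genes gh1, tshba, smtla and fshb were under 0.5 RPM on average. In PFOS70 of number 5 the neuronal sum ran from 12822 to 13391 RPM, inside the range of the other fish. The part of cell makeup in the differences was not tested.

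Of the variance of nfil3-5 over the 80 fish, the exposure number held 60.1%, the condition 6.62%, their combination 28.2%, sex 1.19% and the spread of fish within an exposure replicate 3.8%. For dbpb the same shares were 53.8%, 4.18%, 36.7%, 0.58% and 4.8%. These shares include PFOS70 of number 5, which differed from its control by -2.73 for nfil3-5 and 1.72 for dbpb. They were not worked out without it. The median gene had 16% with the number and 59.1% within exposure replicates. tefb had 25.3% and 51.1%, and nfil3-6 had 18.8% and 63.6%.

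No member passed in any exposure when the 80 fish were compared without regard to number. For POP10 it was 0 of 8 members against 0.0188% of all genes, for PFOS10 0 of 8 against 0.00939%, and for POP70 and PFOS70 0 of 8 against 0% (limma; 417 genes for POP10, 1197 for PFOS10, 165 for POP70 and 588 for PFOS70 had an unadjusted p under 0.05). Among the members, hlfa in PFOS10 alone had an unadjusted p under 0.05. It was higher by 1.0 ± 0.30, with an unadjusted p of 0.00132 and an adjusted p of 0.432, and by 0.56 to 1.57 in 4 of 4 numbers. The leading component, which accounted for 64.4% of the variance of hlfa over the 80 fish, was also higher in PFOS10 than in control. In numbers 3 to 6 it averaged -0.51, 0.55, 0.11 and 1.41 in PFOS10, and -1.32, 0.17, -0.07 and -0.13 in control. With the component as a covariate, hlfa in PFOS10 did not pass, and over all alternative fits its difference ran from 0.50 to 1.15. The component's part in the hlfa difference was not tested further. The 95% interval was -0.19 to 1.40 for nfil3-5 in PFOS10 and -0.36 to 0.49 for dbpb in PFOS70. Exact permutation tests of 4 against 4 exposure replicates gave p of 0.0571 at the least, for hlfa in PFOS10, where 0.0286 is the smallest possible. They did not pair the exposure replicates by number, so the spread between numbers counts in them. An F test of any exposure gave 0 of 8 members, against 0.0658% of all genes, and the exposure differences did not vary with sex for any of 8 members past the threshold, where 0% of all genes passed in each exposure.

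Set against the control exposure replicate of the same number, nfil3-5 was higher in 15 of 16 comparisons. The exception was PFOS70 of number 5, at -2.73. In PFOS10 the differences were 0.45 in number 3, 0.65 in number 4, 0.67 in number 5 and 0.65 in number 6, and in PFOS70 they were 0.44, 0.77 and 0.45 in numbers 3, 4 and 6. In POP10 they ran from 0.01 to 0.33 and in POP70 from 0.06 to 0.39. dbpb was lower than its control in 14 of 16 comparisons, at -0.15 to -0.04 in POP10, -0.37 to -0.06 in POP70, and -0.56 to -0.45 in PFOS70 of numbers 3, 4 and 6. In PFOS10 it was at -0.35 to -0.32 in numbers 3, 4 and 6 and at 0.18 in number 5. The 4 exposures share the control exposure replicates, so these are not independent of each other.

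**Figure D4:**
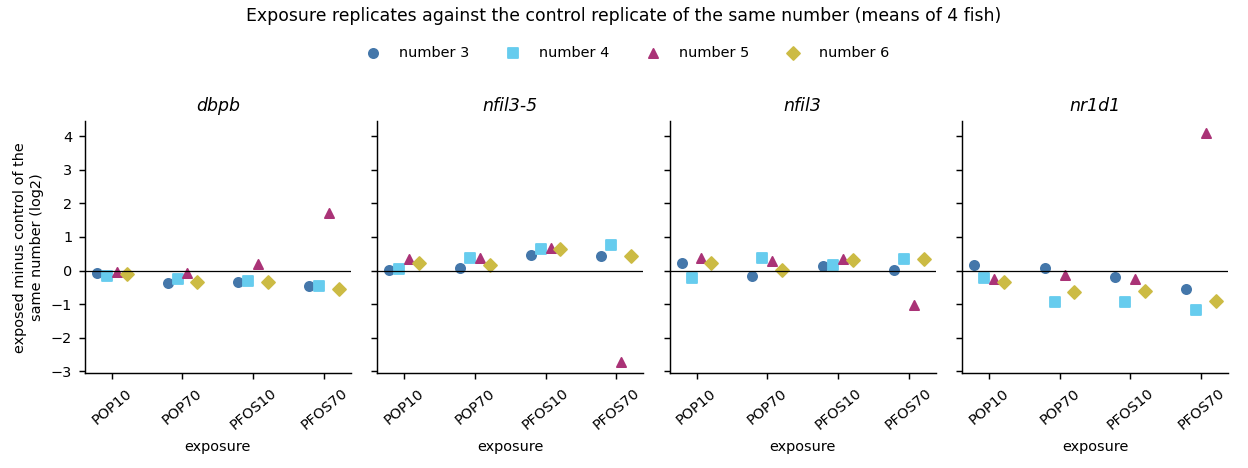
Exposure replicate mean minus the control mean of the same number (log2) for dbpb, nfil3-5, nfil3 and the clock gene nr1d1, with 1 point per number. nfil3-5 lies above 0 in 4 of 4 numbers in each of POP10, POP70 and PFOS10, and PFOS70 of number 5 is far from the other points in each panel.

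With the number as a block and all fish, 0 of 8 members passed in each exposure, against 0.0282% of all genes for POP10, 0.0751% for POP70, 0.0564% for PFOS10 and 0% for PFOS70 (992 genes at an unadjusted p under 0.05). This block was among 14 fits that changed a single choice, and none of the 14 gave a call for any member in a single exposure. With the number as a block and without PFOS70 of number 5, a pair of choices made together after the data had been seen, nfil3-5 and dbpb passed, and each call of a member in a single exposure given below comes from that pair of choices or a variant of it. Of 8 settings added after the data had been seen, PFOS10 and PFOS70 each had at least 1 member called in 7, POP70 in 1 and POP10 in 0. nfil3-5 was higher in PFOS10 by 0.61 ± 0.09, or 1.52-fold (adjusted p = 7.44e-06), and in PFOS70 by 0.58 ± 0.09, or 1.5-fold (0.000134). dbpb was lower in PFOS70, at -0.44 ± 0.07, to 0.738 of control (2.18e-05). That is 1 of 8 members against 0.113% of all genes in PFOS10, and 2 of 8 against 0.122% in PFOS70. In POP10 0 of 8 passed, against 0.0282%, and in POP70 0 of 8, against 0.0939%, with dbpb at -0.26 ± 0.06 (0.0517). Fish of the same exposure replicate share an exposure, so the fit was repeated on exposure replicate means. nfil3-5 passed there in PFOS10 (adjusted p = 0.0165), where it was the single gene to pass of 10646 (0.00939%), and in PFOS70 (0.0278), where 5 genes passed (0.047%), while dbpb in PFOS70 did not (0.147). With a correlation between fish of an exposure replicate in place of the means, nfil3-5 passed in PFOS10 (0.0379) and not in PFOS70 (0.139), and dbpb in PFOS70 passed (0.0267), where 0.0188% and 0.0282% of all genes passed. In the fit over fish dbpb in PFOS70 did not pass without number 6 either (adjusted p = 0.0531). Whether the PFOS exposures differ from the mixture in nfil3-5 was not tested.

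Of the clock list, 4 of 31 tested genes passed in PFOS70 in the fit over fish with the block and without PFOS70 of number 5, against 0.122% of all genes, and the 4 were lower. They were ciarta (-0.97 ± 0.12, adjusted p = 4.08e-08), which encodes a clock-associated repressor, nr1d1 (-0.85 ± 0.14, 0.00017), bhlhe41 (-0.46 ± 0.08, 0.000478) and the period gene per1b (-0.41 ± 0.07, 0.000654). The D-box list had ddb2, a DNA repair gene, at -0.52 ± 0.10 (0.00167), as 1 of 11. ciarta also passed in PFOS10 (-0.58 ± 0.11, 0.00172), as 1 of 31 against 0.113% of all genes. On exposure replicate means 1 of 31 clock genes, ciarta (adjusted p = 0.0278), and 1 of 11 D-box genes, ddb2 (0.0316), passed in PFOS70, and 0 of 31 and 0 of 11 passed in PFOS10. ciarta, bhlhe41 and ddb2 were named here after their values had been seen. PFOS70 of number 5, left out of these fits, was above its control by 4.19 for ciarta, 4.10 for nr1d1 and 2.37 for per1b. It was above it by 1.52 for bhlhe41 and 1.95 for ddb2. It was left out with values of this kind known, so the PFOS70 counts add no support. With all fish, with or without the block, 0 of 31 clock genes and 0 of 11 D-box genes passed in either PFOS exposure.

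No member passed between females and males when the 80 fish were compared by group, where 1.31% of all genes passed (1.07% lower in females). nfil3-5 averaged 5.25 ± 1.16 (SD, n = 40) in females and 5.49 ± 1.09 in males, and its 95% interval for the difference was -0.75 to 0.26. Within exposure replicates, however, females were lower than males in 18 of 20, by 0.24 on average, and the 20 differences ran from -0.74 to 0.19. With each exposure replicate as a block, a choice made after the data had been seen, the difference was -0.24 ± 0.06, or 0.844 of the male level (adjusted p = 0.00601), and 1 of 8 members passed, against 2.64% of all genes. nfil3-5 did not pass with the number as a block and all fish (0.473) or with a correlation between fish of an exposure replicate (0.510). dbpb had 14 of 20 exposure replicates with females higher, by 0.09 ± 0.03, and did not pass (0.145). The sex difference did not vary with the exposure number for any of 8 members past the threshold (0% of all genes, with 494 of 10646 at an unadjusted p under 0.05), and the adjusted p for nfil3-5 was 0.937.

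**Figure D5:**
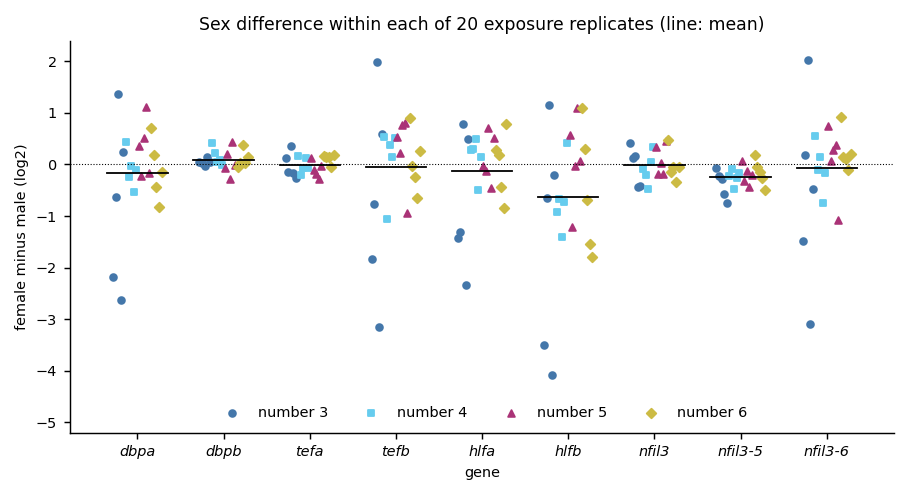
Female mean minus male mean (log2) within each of 20 exposure replicates for the 9 genes, coloured by exposure number, with the mean as a line. nfil3-5 lies below 0 in 18 of 20, and dbpa, tefb, hlfa, hlfb and nfil3-6 spread widely, most of all in number 3.

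The members fell into sets by how alike they were over the 20 exposure replicates. Replicates of a number share an age, and both genes of a pair come from the same libraries, so the correlations are descriptions. Pearson's r was -0.95 between dbpb and nfil3-5, -0.91 between tefa and nfil3-5, 0.95 between nfil3 and nfil3-5 and 0.82 between dbpb and tefa. tefb and nfil3-6 had r = 0.93, hlfa and hlfb 0.84, and tefb and dbpa 0.84, whereas dbpb and tefb had 0.16 and nfil3-5 and nfil3-6 -0.01. Without PFOS70 of number 5, r between dbpb and nfil3-5 was -0.95 as well. Taken as deviations of fish from their exposure replicate, r was -0.12 between dbpb and nfil3-5 but 0.91 between tefb and nfil3-6 and 0.89 between dbpa and tefb. The opposite levels of dbpb and nfil3-5 were thus seen between exposure replicates and hardly between fish of the same exposure replicate.

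Outside the members and the clock list, the gene most like dbpb was one with a clone name (r = 0.98), with ddb2 and the heat shock factor hsf2 next (0.98 and 0.97), and rimkla was the most opposite (-0.96). For nfil3-5 the most alike were another gene with a clone name (0.97), impdh1b, which encodes an enzyme of guanine nucleotide synthesis (0.95), and rimkla (0.95), with hsf2 the most opposite (-0.98). nfil3 had tcirg1a, spegb and impdh1b (0.93, 0.92 and 0.91) and, again, hsf2 as the opposite (-0.93). tefa was most like hspa4l, lonrf1 and znf395b (0.95, 0.92 and 0.91) and most opposite to fus (-0.91). tefb was most like msi2a, prodha and ube2ql1 (0.96, 0.95 and 0.95) and nfil3-6 most like golga2, cpne3 and dpysl2b (0.95 each), and slc19a3a was the most opposite of both (-0.95 and -0.92). dbpa was most like stk35l, aldh4a1 and arhgef9a (0.96, 0.96 and 0.92) and opposite to snrnp25 (-0.92). hlfa was most like 2 genes with clone names and foxo3b, a forkhead transcription factor (0.92), and opposite to lhfpl5b (-0.92).

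Genes of the clock list differed between the numbers along with the members. Of 31 tested clock genes 27 passed the F test over numbers (46.9% of all genes), as did 9 of 11 tested D-box genes, the list of genes with a reported D-box response to light, and 1 of 5 tested genes known as PAR bZIP targets in mammals, alas1, of heme synthesis. Between numbers 3 and 5, 13 clock genes were higher in number 3 and 9 were lower, and 8 D-box genes were higher and 0 lower (1.48% of all genes were higher and 15.9% lower). Those with the smallest p over numbers were the period genes per3 and per2, the photolyase-related genes cry-dash and cry5, fbxl3a, which marks cryptochromes for degradation, and the D-box genes lonrf1l, ddb2 and xpc. Number 3 was above number 5 by 1.47 ± 0.25 for per3, 1.77 ± 0.28 for cry-dash, 0.98 ± 0.16 for cry5, 0.84 ± 0.23 for per2, 0.77 ± 0.18 for lonrf1l, 1.61 ± 0.31 for ddb2 and 0.29 ± 0.10 for xpc. The fbxl3a difference was -1.68 ± 0.36. The clock and D-box lists share genes such as per2, cry5 and cry-dash, so their counts are not independent. Without PFOS70 of number 5, 16 clock genes were higher in number 3 than in number 5 and 9 were lower. For the D-box list, 9 were then higher and 1 lower, where 20.3% of all genes passed either way.

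nr1d1 differed by several log2 units between the numbers. Its exposure replicates lay between 6.71 and 7.43 in number 3 and 6.79 and 7.72 in number 6, between 4.56 and 5.74 in number 4, and between 3.26 and 3.52 in number 5 other than PFOS70. Number 3 was above number 5 by 2.95 ± 0.63 (adjusted p = 0.014), and by 3.92 ± 0.13 without PFOS70 of number 5. For per1b this difference was 1.62 ± 0.36 (0.0144), and arntl1b, which encodes a copy of the clock activator BMAL1, was lower in number 3, at -1.68 ± 0.39 (0.0158). In number 6, where nr1d1 was high as well, arntl1b ran from 2.80 in POP10 to 4.66 in PFOS70. That range overlapped number 5 other than PFOS70, at 3.94 to 4.50. arntl1a, another such copy, named here with its values known, did not overlap in this way. It ran from 5.80 to 6.17 in number 3 and from 5.91 to 6.14 in number 6. In number 5 it ran from 7.01 to 7.28 other than PFOS70, which was at 5.72. Over the 20 exposure replicates nr1d1 had r = 0.98 with dbpb, -0.97 with nfil3-5 and -0.98 with arntl1a. Exposure replicates with high nr1d1 and dbpb and low nfil3-5 were those of numbers 3 and 6 and PFOS70 of number 5.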

How the data were processed

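Whole brains of 80 fish were sequenced singly, with 8 fish of each sex for each of 5 conditions. Per the submitters' processing notes, the build was GRCz11 and the tools R 3.5.0, DESeq2, STAR 2.5.4b and Trim Galore 0.4.5. How reads were counted and scaled, and whether by strand, is not given in the sources used here. Per the file headers, the authors deposited log2 normalized expression, 1 column a fish. Of the values under 5000 reads, 100% were whole reads to within 0.02, with 0 reads standing as 0.9 read. Summed over a library, the linear values came to 1.27 to 1.42 times 1000000, so RPM is the deposited scale and its divisor is not known. No pair of 3160 library pairs agreed within sampling noise (chi-square per degree of freedom 15.1 at the least). A gene at 10 RPM rested on 71.2 to 144 reads.

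Genes with a mean of at least 10 RPM entered limma 3.58.1 (R 4.3.3) as log2 values, with the prior variance following the mean level. Tests were two-sided, and p-values were adjusted by Benjamini-Hochberg in each comparison over every gene tested (threshold 0.05). Exposures and sexes were compared over 80 fish with 10 group means, and numbers over 20 exposure replicate means with condition in the model. Pairs of numbers and single exposures were also compared by exact permutation tests of exposure replicate means. These tests used no pairing, neither by number nor by condition. The fits were checked on simulated data with known differences. For exposures and sexes, the simulated fish of an exposure replicate were independent of each other. In the data the correlation within exposure replicates was 0.238, and the check of those fits does not cover it. Numbers pair the samples, since fish of a number had the same age in all conditions. Deviations of same-numbered exposure replicates correlated with a median r of 0.325 over 40 pairs (-0.122 between other numbers), and 35 of 40 were over 0.1. The 4 fish of an exposure replicate share an exposure, and fits over fish without a correlation term count them as independent. Without a block, the spread behind those p-values holds that between numbers and exposure replicates together with that of fish. With the number as a block, the spread between numbers is taken out.

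The members, the gene lists and the tests were chosen with earlier results of these data known. The named genes are the 9 members, the 8 genes of the clock, D-box and mammalian target lists with the smallest p over numbers, nr1d1, per1b, arntl1b, per2 and cry5 in any case, and for each tested member the 3 most alike genes and the most opposite. The alternatives were the number as a block, a correlation within exposure replicates, the leading principal component as a covariate, each number, each condition or PFOS70 of number 5 left out, limma-voom on the recovered reads, fewer groups in the fit, fish as the unit, no filter, a filter at 100 RPM, quantile normalization and log2(value + 1).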

Additional observations from a re-analysis of the deposited data

Results flagged for a closer look

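Single exposure replicates stood far from the rest of their number or condition in 6 of 81 sets of 4 or 5 exposure replicate means (Dixon's test, which chance flags in about 1 in 20). In number 5, PFOS70 was the highest for dbpb, at 7.74 where the other 4 were at 5.96 to 6.20, and the lowest for nfil3-5, at 4.24 where the others were at 6.97 to 7.64, and for nfil3, at 3.54 where the others were at 4.56 to 4.94. In POP10, number 5 was the lowest for tefa, at 7.67 against 8.48 to 8.64 in the other numbers, and the highest for nfil3, at 4.94 against 3.75 to 3.91. POP10 was not alone in this: control, POP70 and PFOS10 of number 5 had tefa at 7.77, 7.41 and 7.49 and nfil3 at 4.56, 4.83 and 4.90. In PFOS70, number 3 was the lowest for hlfa, at 4.48 against 6.44 to 6.71. The cause of these values was not tested.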

How the results depend on the processing

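For nfil3-5 and dbpb the exposure results turned on a joint choice added after the data were seen, the number as a replicate block without PFOS70 of number 5. Members called went from 0 to 1 in PFOS10 (0.113% of all genes) and 0 to 2 in PFOS70 (0.122%). They went from 0 to 2 for any exposure (0.225%) and 0 to 1 between the sexes (1.53%). With a correlation they went to 1 each in PFOS10 (0.0188%), PFOS70 (0.0282%), any exposure (0.047%) and the sexes (2.4%). On exposure replicate means they were 1 in PFOS10 and 1 in PFOS70. Leaving out each number from that blocked fit gave 0 to 1 members in POP70, 1 to 2 in PFOS10, 1 to 4 in PFOS70, 1 to 4 for any exposure and 0 to 1 between the sexes. The share of all genes called was not worked out for fits that left out a number. These fits count the fish of an exposure replicate as independent. Members called only in such fits were hlfa in PFOS10 (lowest adjusted p = 0.0199) and PFOS70 (0.0104), and nfil3 in PFOS70 (0.0133). The same held for dbpb in PFOS10 (0.00243) and POP70 (0.00498). In PFOS70 the direction reversed under the joint choice to -0.44 for dbpb and 0.58 for nfil3-5. Over all fits that left out a number, with and without that joint choice, the PFOS70 difference ran from -0.49 to 0.27 for dbpb, from -0.61 to 0.65 for nfil3-5 and from -0.22 to 0.395 for nfil3. None of the 14 alternatives planned for each exposure gave a call in a single exposure. The replicate block alone changed no call, with nfil3-5 in PFOS10 at an adjusted p of 0.19. Without number 3, 1 member passed for any exposure, and with each exposure replicate as a block 1 passed between the sexes.

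Over numbers, 8 members passed, but 5 with the component as covariate. With each condition left out it was 3 to 7 (3 without control, 4 without PFOS10). With the filter at 100 RPM 2 passed, dbpb and tefa, the only members tested there (means of 131.8 and 340.7 RPM). Counts with that filter below are out of these 2. For numbers 3 and 4 the 3 members became 6 with fish as the unit, against 49.9% of all genes. They became 5 without PFOS70 of number 5, against 37.9%. It was 0 with the component, 1 with the filter at 100 RPM, 1 without control, POP10 or PFOS10 and 3 without POP70 or PFOS70. For numbers 3 and 5 the 5 became 0 with the component, 2 with the filter, 3 with quantile normalization and 0 without control, POP10 or PFOS10. For numbers 3 and 6 the 4 became 0 with the component. They were not tested with the filter, where neither dbpb nor tefa passed in this pair. For numbers 4 and 5 and for 4 and 6 the 0 became 4 with fish as the unit, against 5.71% and 31.4% of all genes. Without PFOS70 of number 5 it was 4 in each, against 0.629% and 17.5% (5 and 3 members without PFOS70 altogether). PFOS70 of number 5 was left out with its values for these genes known, so these counts add no support. For numbers 5 and 6 the 4 became 0 with the component, 2 with the filter and 0 without any of control, POP10, POP70 or PFOS10. With the component, tefb in numbers 3 and 4 reversed to 0.25, and in numbers 3 and 6 hlfa to 0.17 and nfil3-6 to 0.018. The share of all genes was not worked out for the component, the filter, quantile normalization or a condition left out. Without that share, those counts are not results about the members. The cause of these changes was not tested.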
